A study of Mus musculus with 12 samples.

Results

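The Hippo pathway is a kinase cascade that restrains YAP (Yap1) and TAZ (Wwtr1), a pair of related co-activators. When the kinases MST1 and MST2 (Stk4, Stk3) and LATS1 and LATS2 are active, YAP and TAZ are phosphorylated and held in the cytoplasm, and when they are not, YAP and TAZ enter the nucleus and act through the DNA-binding TEAD factors. Spread cells, stiff support and actin tension are known to favour the nuclear state, and in muscle cells YAP is associated with proliferating myoblasts. Among the best known target genes are Ccn1, Ccn2 and Ankrd1, and Lats2, Amotl1 and Amotl2 are target genes whose products restrain YAP in turn.

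These 10 genes, Ccn1, Ccn2, Ankrd1, Amotl1, Amotl2, Lats2, Yap1, Wwtr1, Tead1 and Tead4, were taken by name from the 56941 genes of the deposited count table. All 10 were found once each, and all 10 were among the 13168 genes with enough counts to be tested. The RNA came from C2C12, a mouse myoblast line that fuses into myotubes, in 12 wells: 6 of a line of genotype ChR2::tdTomato, which carries a light-gated cation channel with a red fluorescent protein, and 6 of the Wild-Type line. All wells of both lines were grown on a fibrin gel 1 mm thick, with 2 days in growth medium containing aminocaproic acid followed by 6 days in a differentiation medium that contained horse serum, IGF-1 and again aminocaproic acid. The promoter that drives the transgene, whether the line is 1 clone, and any light given to these wells are not given in the sources used here.

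The libraries held 7388760 to 12229500 estimated counts in the ChR2 wells and 10268100 to 13628600 in wild-type wells 1, 3, 4 and 6, with 1061070 in wild-type well 2 and 2809670 in well 5. These 2 shallow wells also held 24.8% and 8.37% of their counts as 7SL RNA, a transcript with no poly(A) tail, against at most 0.0341% in any other well, and the protocol states that low-input samples, which it does not name, were ribodepleted in place of poly(A) selection. Calls are therefore given over 12 libraries and without these 2 wells (10 libraries), for the 10 genes and list genes chosen by rule. Some genes named beyond that rule are given over 12 libraries only. Myotube markers were present in both lines: the summed level of 7 of them ran from 9381 to 11211 CPM (estimated counts over the scaled library size, per 1e6) in ChR2 and from 7287 to 13343 CPM in wild-type wells, and 2 of the 7, Myog and Des, were lower in ChR2, and 2 of the 7 were lower over 10 libraries too, Myog and Mymk (Mymk log2 fold change -0.62, adjusted p = 0.00121), where Des was not called (-0.29, adjusted p = 0.112). All 5 markers of cycling cells were higher in ChR2, with sums of 504 to 713 CPM against 66.8 to 394 CPM in wild-type wells. Beside these marker counts, 14.0% of all tested genes were higher and 14.1% lower, or 18.9% and 16.3% over 10 libraries. The part of cycling cells in the results below was not tested. Of 6 fibroblast markers, 4 were abundant enough to test and 0 were called in either direction (sums 766 to 920.1 CPM in ChR2 and 401 to 1190.1 CPM in wild-type wells), while Thy1 was at 0 in every ChR2 well and Lum in every wild-type well. The 4 endothelial markers summed to at most 0.687 CPM in any well, and of the 4 immune markers 1 was abundant enough to test. Whether wells of a line were separate cultures is not labelled, and the p-values reflect the spread among wells alone, which may be technical. In bulk RNA, fewer cells of a type and less RNA per cell cannot be told apart.

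TEAD factors bind a short element known as MCAT, whose core reads CATTCC, or GGAATG on the opposite strand. Promoter sequences from RefSeq (build GRCm38.p6) were matched by symbol for 7 of the 10 genes, leaving Ccn2, Tead1 and Tead4, and the 250 bases before the start site were searched on both strands for these 6 letters. The motif was found for 5 of the 7 genes: Ccn1, Ankrd1, Amotl2, Yap1 and Wwtr1. Of all 27025 genes with a promoter in the table, 14.4% held it in at least 1 window, and of all 32851 windows of the same length 12.6% did. Below are 3 target gene promoters with a match and that of Amotl1, a target gene in which these letters were not found. They lie at chr3:145649986-145650235 (minus strand, Ccn1), chr19:36119845-36120094 (minus strand, Ankrd1), chr9:102717554-102717803 (plus strand, Amotl2) and chr9:14615001-14615250 (minus strand, Amotl1). Each is written 5′ to 3′ on the strand of its gene and ends at the base before the start site, with matches in capitals.
Ccn1: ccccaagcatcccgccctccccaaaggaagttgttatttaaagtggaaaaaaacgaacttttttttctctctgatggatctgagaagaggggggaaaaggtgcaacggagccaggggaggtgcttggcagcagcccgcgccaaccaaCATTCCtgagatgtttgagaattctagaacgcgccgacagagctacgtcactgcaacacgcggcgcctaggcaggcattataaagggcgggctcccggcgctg
Ankrd1: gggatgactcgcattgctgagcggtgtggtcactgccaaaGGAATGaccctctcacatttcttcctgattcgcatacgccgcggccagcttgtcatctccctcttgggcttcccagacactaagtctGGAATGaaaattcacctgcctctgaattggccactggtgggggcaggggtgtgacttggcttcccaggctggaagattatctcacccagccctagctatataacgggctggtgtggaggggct
Amotl2: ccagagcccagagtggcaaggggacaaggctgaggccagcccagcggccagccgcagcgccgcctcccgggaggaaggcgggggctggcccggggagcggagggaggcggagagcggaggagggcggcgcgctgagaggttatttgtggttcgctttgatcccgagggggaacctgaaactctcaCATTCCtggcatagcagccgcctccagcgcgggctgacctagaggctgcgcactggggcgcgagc
Amotl1: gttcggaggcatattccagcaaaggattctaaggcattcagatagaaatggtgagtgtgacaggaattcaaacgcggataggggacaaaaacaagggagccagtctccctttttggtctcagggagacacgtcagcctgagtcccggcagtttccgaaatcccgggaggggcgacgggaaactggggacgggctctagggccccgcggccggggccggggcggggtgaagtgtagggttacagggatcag
The Ccn1 match begins 103 bases before the start site and the Amotl2 match 65 bases before it, both on the strand of the gene. Ankrd1 held 2 matches on the opposite strand, which begin 210 and 123 bases before its start site, and 0.992% of all windows held at least 2. A match is a description of the letters and not of binding. The 4 genes shown did not share a direction: Ccn1 and Ankrd1 were higher in ChR2 wells, Amotl2 was not called, and Amotl1 was lower. Of the genes not shown, Yap1 and Wwtr1 held a match and were not called. Lats2 held no match, and was lower over 12 libraries and not called over 10. A link between match and direction was not tested.

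The design sets the ChR2 line against the wild-type line, and for these genes asks which steps of the pathway differ in message level. Ccn1, Ccn2 and Ankrd1 rose in ChR2 wells, Tead4, Amotl1 and Lats2 fell, and Yap1, Wwtr1, Tead1 and Amotl2 were not called (edgeR's quasi-likelihood test, with p adjusted by Benjamini-Hochberg over all genes tested and called below 0.05). So 6 of the 10 were called, where 28.1% of all tested genes were. By direction, 3 were higher, against 14.0% of all genes, and 3 lower, against 14.1%. Without wild-type wells 2 and 5 the same 3 were higher and 2 of the 3, Tead4 and Amotl1, were lower, where 35.2% of all 13484 genes tested there were called, 18.9% higher and 16.3% lower. The 2 lines did not overlap in any well for Ccn1, Amotl1 and Tead4, in either set of libraries, and the same held for 15.1% of all genes over 12 libraries (8.57% higher, 6.52% lower in ChR2) and 25.0% over 10. By limma on log2(TPM + 1) over 12 libraries, 0 of the 10 were called. That fit called 493 genes higher and 23 lower (95.5% of calls higher), against 1838 and 1863 by edgeR (49.7% higher). Why the fits differ was not tested. The median log2 fold change of the 10 was 0.05, beside -0.02 for all genes. Levels are CPM on library sizes scaled by TMM, with mean ± SD (n = 6 per line). A positive log2 fold change means more in ChR2, and SE is its standard error.

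**Figure D1:**
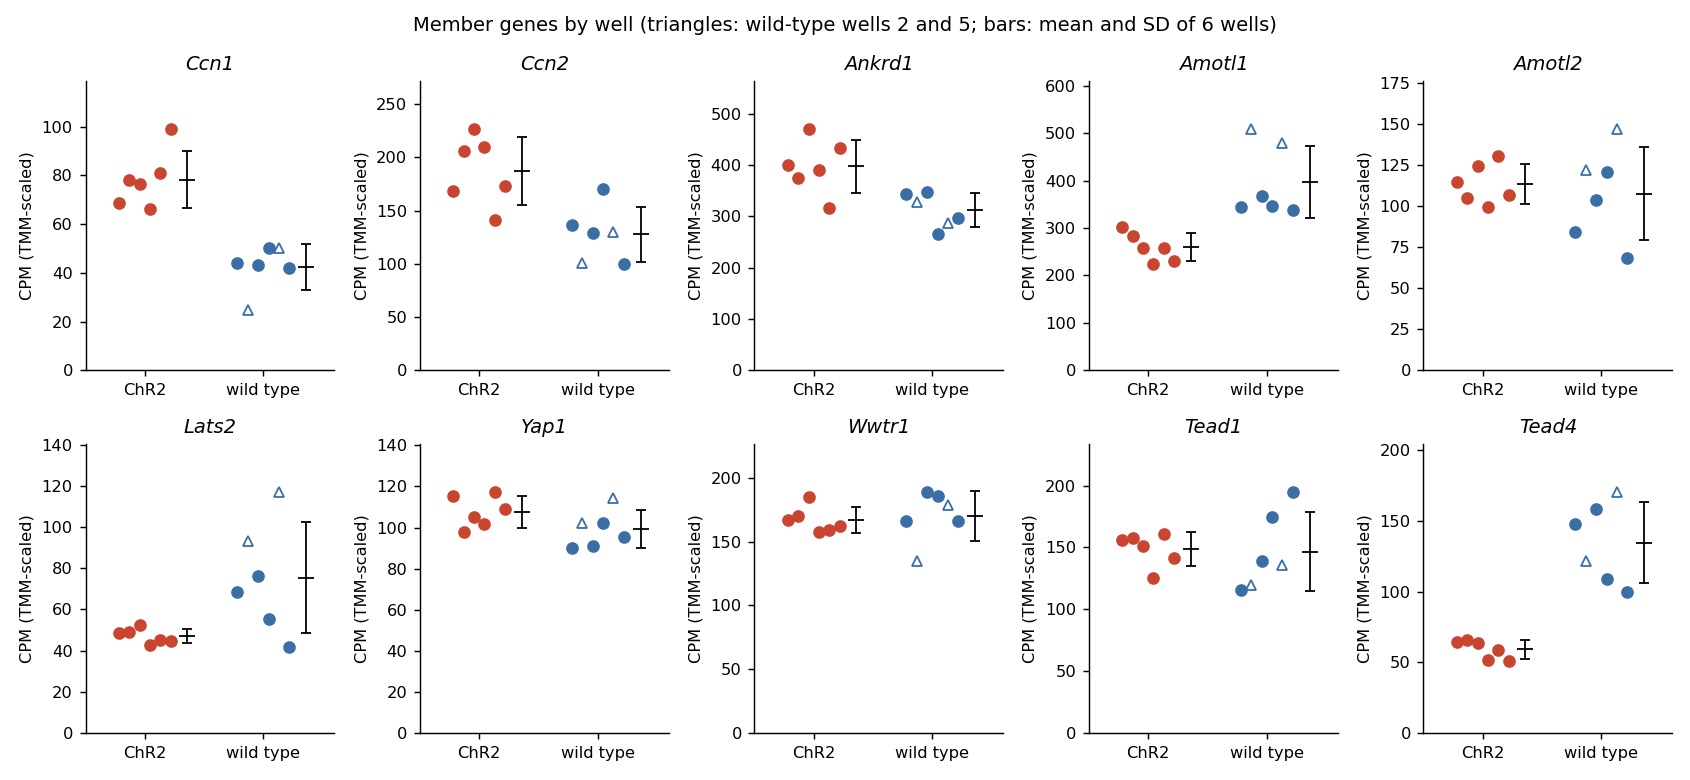
Level of each of the 10 genes in each well, in TMM-scaled CPM on axes that start at 0. Filled circles are wells, open triangles are wild-type wells 2 and 5, and the bars give the mean and SD of 6 wells; the lines are fully apart for Ccn1, Amotl1 and Tead4 and overlap for the rest.

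Ccn1 (ENSMUSG00000028195) encodes CYR61, a secreted matrix-associated protein that binds integrins. Its level ran from 66.1 to 98.9 CPM in ChR2 wells with a median of 77.3, and from 24.9 to 50.3 CPM in wild-type wells with a median of 43.7. The lowest ChR2 well thus lay above the highest wild-type well. The lowest value of all was wild-type well 2, where the gene had only 19 counts, and the other 5 wild-type wells lay between 41.9 and 50.3 CPM. The mean was 78.3 ± 11.6 CPM against 42.5 ± 9.32 CPM, a log2 fold change of 0.85 (SE 0.15, adjusted p = 0.000922). With wild-type wells 2 and 5 left out it was 0.82 (adjusted p = 0.000151).

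Ccn2 (ENSMUSG00000019997) encodes CTGF, the connective tissue growth factor of the same family. In ChR2 wells it ran from 141 to 226 CPM with a median of 189, and in wild-type wells from 99.5 to 169.8 CPM with a median of 129. The lines overlapped: ChR2 wells 1 and 5 (168 and 141 CPM) lay below wild-type well 4 (169.8 CPM), and the other 4 ChR2 wells lay above every wild-type well. The mean was 187 ± 31.8 against 128 ± 26.0 CPM, a log2 fold change of 0.55 (SE 0.15, adjusted p = 0.0153), or 0.50 without wild-type wells 2 and 5 (adjusted p = 0.0213). The wells with most Ccn2 were not those with most Ccn1. ChR2 well 6, the highest for Ccn1, was the fourth of the ChR2 wells for Ccn2, and ChR2 well 3, the highest for Ccn2, was the fourth for Ccn1.

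Ankrd1 (ENSMUSG00000024803) encodes CARP, an ankyrin repeat protein of the sarcomere and nucleus of striated muscle. It ran from 316 to 469.6 CPM in ChR2 wells with a median of 394, and from 266 to 348 CPM in wild-type wells with a median of 313. Of the ChR2 wells, 5 lay above every wild-type well, and well 5 (316 CPM) lay below 3 of them. The mean was 397 ± 52.2 against 312 ± 33.4 CPM, a log2 fold change of 0.35 (SE 0.12, adjusted p = 0.0441), and 0.36 without wild-type wells 2 and 5 (adjusted p = 0.031). Leaving out ChR2 well 1, 2, 3, 4 or 6 alone, or wild-type well 3, 4, 5 or 6 alone, ended this call (adjusted p up to 0.105), and the fold change stayed between 0.30 and 0.43. Of all tested genes, 45.1% had a larger absolute fold change than Ankrd1, against 11.8% for Ccn1 and 26.3% for Ccn2.

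Of the feedback genes, Amotl1 (ENSMUSG00000013076) encodes an angiomotin-like protein that binds YAP at cell junctions and on actin. It ran from 224 to 302 CPM in ChR2 wells with a median of 258, and from 338 to 509 CPM in wild-type wells with a median of 357. Every ChR2 well lay below every wild-type well, and the 2 highest values were those of wild-type wells 2 and 5 (509 and 480.3 CPM). The other 4 wild-type wells lay close together, between 338 and 367 CPM. The mean was 259 ± 29.9 against 397 ± 76.2 CPM, a log2 fold change of -0.61 (SE 0.14, adjusted p = 0.00483). It was -0.41 with these 2 wells left out (adjusted p = 0.00425).

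Its relative Amotl2 (ENSMUSG00000032531), also an angiomotin-like protein, did not follow it. It ran from 99.6 to 131 CPM in ChR2 wells with a median of 111, and from 68.3 to 147 CPM in wild-type wells with a median of 112, so the ChR2 wells lay inside the wild-type range. The log2 fold change was 0.09, with a 95% interval of -0.26 to 0.44 (adjusted p = 0.724). Without wild-type wells 2 and 5 it was 0.29, with an interval of -0.01 to 0.58 (adjusted p = 0.116), and without wild-type well 6, the lowest at 68.3 CPM, it was -0.02.

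Lats2 (ENSMUSG00000021959), the kinase that phosphorylates YAP and TAZ, ran from 42.9 to 52.3 CPM in ChR2 wells with a median of 47.0. In wild-type wells it ran from 41.7 to 117 CPM with a median of 72.3. The ChR2 wells were close together, and the wild-type wells were the most dispersed of any of the 10 genes, with an SD of 35.8% of the mean. Wild-type wells 2 and 5 were the highest (93.1 and 117 CPM) and well 6 the lowest, below every ChR2 well. Over 12 libraries Lats2 fell by 0.65 on the log2 scale (SE 0.20, adjusted p = 0.024). Without wild-type wells 2 and 5 it was not called, at -0.34 with a 95% interval of -0.63 to -0.05 (adjusted p = 0.062). The call was also lost without ChR2 well 4 (adjusted p = 0.0501) or ChR2 well 5 (adjusted p = 0.0517). Lats1, the other LATS kinase, was not called and stood at 61.1 ± 5.25 against 56.2 ± 18.3 CPM (adjusted p = 0.719).

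The co-activators themselves were at similar levels in both lines. Yap1 (ENSMUSG00000053110) ran from 97.7 to 117 CPM in ChR2 wells with a median of 107, and from 90.1 to 115 CPM in wild-type wells with a median of 98.7. Its log2 fold change was 0.12, with a 95% interval of -0.09 to 0.33 (adjusted p = 0.376), and 0.20 with an interval of 0.03 to 0.38 without wild-type wells 2 and 5 (adjusted p = 0.0652). Wwtr1 (ENSMUSG00000027803) ran from 158 to 185 CPM in ChR2 wells with a median of 165, and from 135 to 189 CPM in wild-type wells with a median of 172. Its log2 fold change was -0.03, with an interval of -0.25 to 0.19 (adjusted p = 0.84), and -0.07 over 10 libraries (adjusted p = 0.543). For both genes the wells of the 2 lines overlapped. These intervals leave room for small differences in either gene. They concern message only, since the phosphorylation and location of YAP and TAZ were not measured.

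Of the DNA-binding partners, Tead4 (ENSMUSG00000030353), the TEAD factor known as a target of MyoD and myogenin in myoblast differentiation, had the largest fold change of the 10 genes. It ran from 50.6 to 65.8 CPM in ChR2 wells with a median of 61.3, and from 99.5 to 171 CPM in wild-type wells with a median of 135. The highest ChR2 well lay well below the lowest wild-type well, which was well 6. The mean was 59.2 ± 6.69 against 135 ± 28.6 CPM, so Tead4 fell by 1.19 on the log2 scale (SE 0.15, adjusted p = 9.71e-05). Over 10 libraries it fell by 1.10 (adjusted p = 4.89e-05), and 5.46% of all genes tested over 12 libraries had a larger absolute fold change. Myog, which encodes myogenin, stood at 542 ± 64.0 against 971 ± 233 CPM (log2 fold change -0.84, adjusted p = 0.00219).

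Tead1 (ENSMUSG00000055320), the TEAD factor widely expressed in muscle, ran from 125 to 161 CPM in ChR2 wells with a median of 154, and from 115 to 195 CPM in wild-type wells with a median of 138. The ChR2 wells lay inside the wild-type range. Its log2 fold change was 0.01, with a 95% interval of -0.28 to 0.31 (adjusted p = 0.956), and -0.05 without wild-type wells 2 and 5. Among the 4 deeper wild-type wells the genes ordered the wells differently. Tead4 was at 158 and 148 CPM in wells 3 and 1 and at 109 and 99.5 CPM in wells 4 and 6, and Lats2 had the same order, from 76.1 and 68.4 to 55.4 and 41.7 CPM. Tead1 had nearly the reverse, with 139 and 115 CPM in wells 3 and 1 and 175 and 195 CPM in wells 4 and 6.

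**Figure D2:**
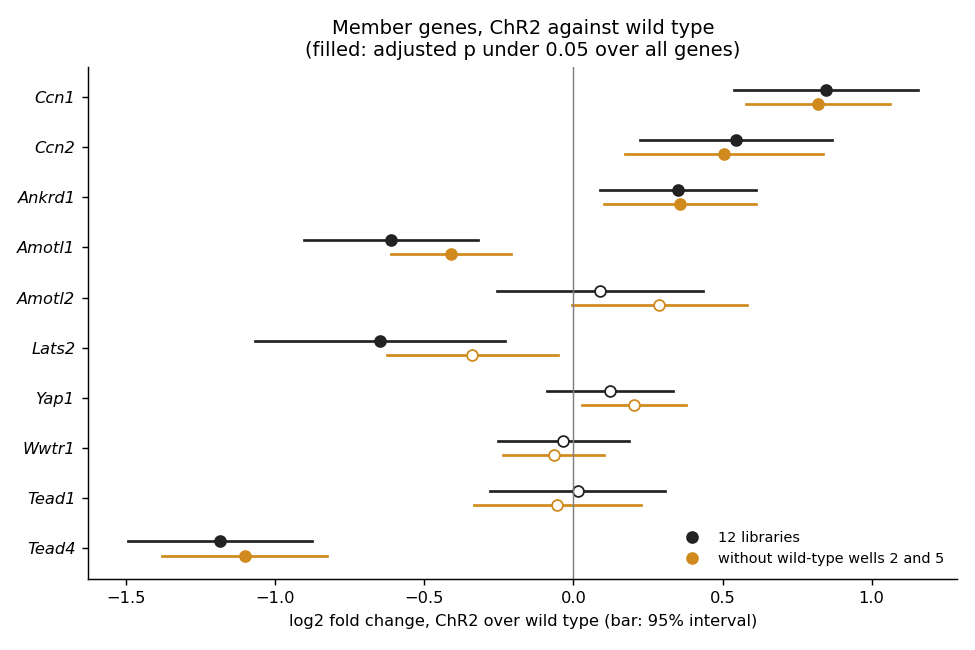
Log2 fold change, ChR2 over wild type, of each of the 10 genes with its 95% interval, over 12 libraries (black) and without wild-type wells 2 and 5 (orange). Filled points passed an adjusted p of 0.05; Lats2 is the gene that is filled in the first and open in the second.

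Levels of different genes were compared in TPM, which accounts for transcript length. TPM in wild-type wells 2 and 5, which were rich in 7SL, stood low against CPM, by amounts that differed between genes. Ccn1 was at 44.2 CPM and 33.3 TPM in wild-type well 1 and at 24.9 CPM and 3.62 TPM in well 2. Amotl1 was at 344 CPM and 57.7 TPM in well 1 and at 509 CPM and 35.3 TPM in well 2. The cause was not tested, and levels are given for the other 4 wild-type wells. In ChR2 wells Ankrd1 was the most abundant (298 ± 57.5 TPM, n = 6), followed by Ccn2 (116 ± 25.8 TPM) and Ccn1 (54.04 ± 7.32 TPM). Wwtr1 (47.0 ± 6.58), Amotl1 (40.4 ± 8.20), Amotl2 (39.6 ± 6.02), Yap1 (35.9 ± 4.95) and Tead4 (31.9 ± 5.72) followed. From Ccn1 to Tead4, no neighbours in this order differed by more than the larger of their SDs. Tead1 (21.6 ± 2.68 TPM) and Lats2 (12.7 ± 2.16 TPM) were the least abundant. In the 4 wild-type wells Ankrd1 (246 ± 41.1 TPM, n = 4) and Ccn2 (86.1 ± 19.1 TPM) again led, but Tead4 was the third (74.8 ± 21.0 TPM). Amotl1 (56.9 ± 4.58) and Wwtr1 (52.1 ± 5.80) came next. Yap1 (34.2 ± 3.32), Amotl2 (34.0 ± 9.20) and Ccn1 (32.7 ± 3.43) differed by less than their SD, and Tead1 (23.8 ± 4.42) and Lats2 (16.7 ± 4.65) were again last. Ccn1 and Tead4 thus changed places within the order, with no test made of the order itself.

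A ratio of 2 genes within a library does not depend on how that library was scaled. The gene-to-gene unevenness of TPM in wild-type wells 2 and 5 remains in it. Tead4 over Tead1 was 1.47 ± 0.123 (range 1.31 to 1.64, n = 6) in ChR2 wells and 3.34 ± 1.14 (range 1.86 to 4.79, n = 6) in wild-type wells, with no overlap. Within the wild-type line, wells 1 and 3 held the highest ratios (4.79 and 4.35) and wells 4 and 6 the lowest (2.35 and 1.86). Amotl1 over Amotl2 was 1.03 ± 0.197 against 1.72 ± 0.352, again with no overlap (at most 1.31 against at least 1.35). Wwtr1 over Yap1 was 1.31 ± 0.135 against 1.37 ± 0.317, and Ccn2 over Ccn1 was 2.17 ± 0.516 against 2.66 ± 0.445, both overlapping. In the 4 deeper wild-type wells these 4 ratios were 3.34, 1.76, 1.53 and 2.61, with the same overlaps. Lats2 over Lats1 was 1.16 ± 0.108 (at most 1.31) against 2.03 ± 1.08 (at least 1.34), where well 2 alone stood at 4.15 and the mean of the 4 deeper wild-type wells was 1.58.

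**Figure D3:**
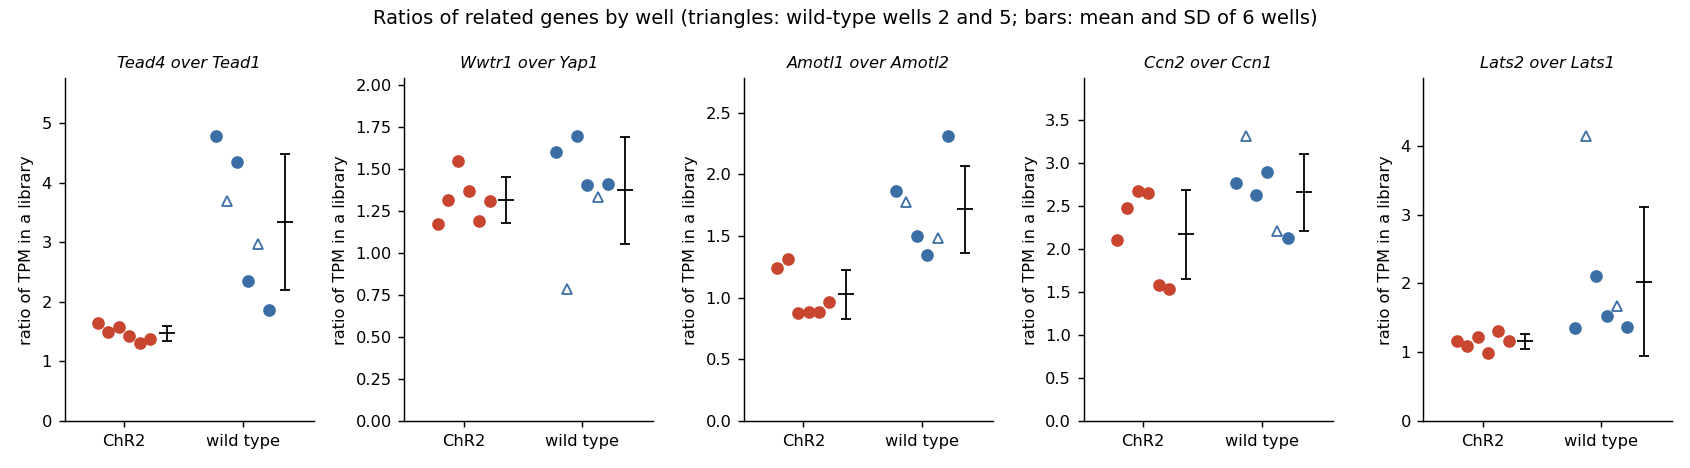
Ratio of TPM between related genes in each well, on axes that start at 0. Filled circles are wells, open triangles wild-type wells 2 and 5, and bars the mean and SD of 6 wells; Tead4 over Tead1, Amotl1 over Amotl2 and Lats2 over Lats1 are lower in every ChR2 well than in any wild-type well.

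The whole TEAD family was described by the share of each member in the summed TPM of Tead1 to Tead4. Tead4 made up 34.7% ± 2.99 in ChR2 wells (31.7% to 38.8%) and 56.3% ± 6.04 in wild-type wells (49.6% to 63.6%). Tead3 made up 15.7% ± 3.29 against 8.11% ± 1.54, with no overlap by a narrow gap (at least 11.2% against at most 11.0%). Its own level was higher in ChR2 (24.1 ± 3.26 against 18.0 ± 2.52 CPM, log2 fold change 0.42, adjusted p = 0.0292). The lines overlapped in that level: ChR2 well 4 (18.3 CPM) lay below wild-type wells 1, 2 and 6 (19.7, 19.7 and 21.0 CPM). Tead3 was not called when ChR2 well 2, 3, 5 or 6 or wild-type well 3 was the one omitted (adjusted p up to 0.0752), and was called without wild-type wells 2 and 5 (adjusted p = 0.0237). Tead1 and Tead2 took 23.7% ± 1.89 and 26.0% ± 6.06 in ChR2 and 18.4% ± 5.60 and 17.2% ± 5.73 in wild-type wells, both with overlap. For Tead2 the overlap came from wild-type well 2 (28.4%). The other 5 wild-type wells held at most 18.1% and every ChR2 well at least 19.2%. The shares of a well sum to a whole, so a lower Tead4 share leaves more to the others. Tead2's own level was not called (31.5 ± 4.30 against 36.9 ± 19.7 CPM, log2 fold change -0.09, adjusted p = 0.813). Over 10 libraries it was not called either (0.27, adjusted p = 0.126). In the 4 deeper wild-type wells the shares were 57.7% ± 6.78 for Tead4, 8.61% ± 1.63 for Tead3, 19.4% ± 6.57 for Tead1 and 14.3% ± 1.16 for Tead2.

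**Figure D4:**
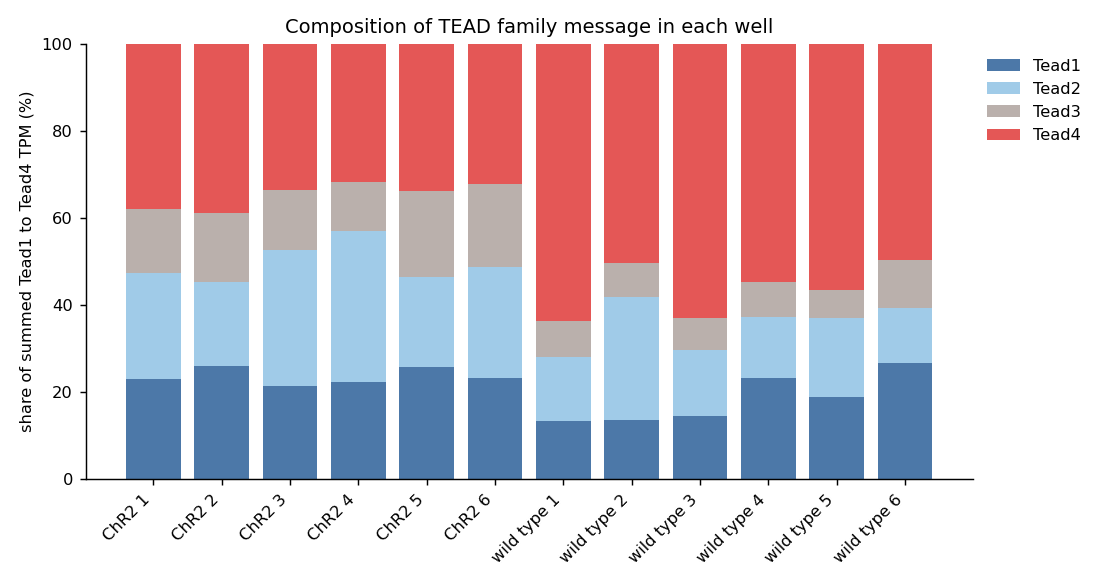
Share of Tead1, Tead2, Tead3 and Tead4 in their summed TPM in each of the 12 wells, in percent. Tead4 (red) takes 31.7% to 38.8% in ChR2 wells and 49.6% to 63.6% in wild-type wells.

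The VGLL proteins compete with YAP for TEAD and were listed with Tead2 and Tead3. Of the 6 genes 5 were tested, and 2 were higher and 1 lower in ChR2, in both sets of libraries. The shares called over all genes were 14.0% higher and 14.1% lower, or 18.9% and 16.3% over 10 libraries. The median log2 fold change of the list was -0.09 (0.27 over 10 libraries). Vgll2, a TEAD cofactor of skeletal muscle, stood at 19.2 ± 2.35 against 4.67 ± 4.05 CPM (log2 fold change 1.74, adjusted p = 0.00249, and 1.51 without wild-type wells 2 and 5). Every ChR2 well lay above every wild-type well, as for 8.57% of all genes over 12 libraries. Wild-type well 2 had 0 counts and well 5 stood at its floor of detection, 1.07 CPM. Vgll3 fell by 0.57 on the log2 scale (35.6 ± 4.06 against 52.6 ± 10.7 CPM, adjusted p = 0.00853), and by 0.48 over 10 libraries. Only Vgll2 was higher when 1 of the 5 wells that decide Tead3 was omitted. Vgll4, at 37.4 ± 3.19 and 43.2 ± 11.3 CPM, was not called (adjusted p = 0.431), and Vgll1 had 0 counts in every well.

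Upstream of LATS, the kinases, scaffolds and junction proteins of the pathway moved in both directions. Of 21 genes 19 were tested, 5 were higher (6 over 10 libraries) and 4 lower (4 over 10), and the median log2 fold change was -0.25, or 0.08 over 10 libraries. Of all genes tested, 14.0% were higher and 14.1% lower over 12 libraries, and 18.9% and 16.3% over 10. In 2 pairs of close relatives, 1 gene rose and the other fell. The kinase Stk3 (MST2) stood at 32.8 ± 3.06 against 18.3 ± 8.83 CPM (log2 fold change 0.71, adjusted p = 0.0276), while Stk4 (MST1) stood at 34.3 ± 4.03 against 49.7 ± 11.5 CPM (-0.51, adjusted p = 0.0193). In wild-type well 2 Stk3 was at 3.93 CPM, which is 3 counts, the floor of detection there. Its mean was 23.2 ± 4.35 CPM in the 4 deeper wild-type wells. The LATS cofactor Mob1a stood at 126 ± 8.31 against 83.1 ± 14.7 CPM (0.59, adjusted p = 0.00286), and Mob1b at 64.2 ± 4.42 against 97.5 ± 11.2 CPM (-0.60, adjusted p = 0.00103). Over 10 libraries these 4 genes stood at 0.51, -0.34, 0.54 and -0.65, called as the choice of named genes required. The wells of the 2 lines did not overlap for Stk3, Mob1a and Mob1b, and did for Stk4. Over 12 libraries 15.1% of all genes did not overlap (8.57% higher, 6.52% lower in ChR2).

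Fat4, an atypical cadherin, had the largest fold change of the upstream genes tested. Its values ran from 9.07 to 14.4 CPM in the ChR2 line, where the mean was 11.4 ± 2.13, and from 0.276 to 3.57 CPM in the wild-type line, where it was 1.53 ± 1.19. The log2 fold change was 3.09 (adjusted p = 0.000133), and 3.37 over 10 libraries. Wild-type well 3 (0.276 CPM) stood at the floor of detection, 3 counts, and wild-type well 2 (1.31 CPM) below its floor of 3.93 CPM. The size of this fold change is therefore uncertain. Fat1, its relative, was not called (84.3 ± 16.0 against 103 ± 45.5 CPM, adjusted p = 0.399). The scaffold Sav1, which activates the MST kinases, stood at 93.2 ± 6.94 against 62.0 ± 19.8 CPM (0.54, adjusted p = 0.0321, and 0.34 without wild-type wells 2 and 5). The kinase Taok1, which acts on the MST kinases, fell by 0.74 (144 ± 15.6 against 240.3 ± 68.8 CPM, adjusted p = 0.00497), and by 0.67 over 10 libraries. Limd1, of the LIM proteins that bind LATS, fell by 0.68 (93.9 ± 7.86 against 153 ± 47.9 CPM, adjusted p = 0.00744), and by 0.40 without wild-type wells 2 and 5. Amot, the third angiomotin, and Nf2, which encodes merlin, were not called (adjusted p = 0.961 and 0.808).

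Several of these calls were close to the threshold. Stk3 dropped out when ChR2 well 1, 3 or 4 or wild-type well 1 was omitted (adjusted p up to 0.0625). Sav1 did so when ChR2 well 1, 2, 3, 4 or 6 or wild-type well 5 was omitted (up to 0.0669), and Stk4 when ChR2 well 5 was (0.0515). Taok3 (log2 fold change 0.33, adjusted p = 0.0369) did so when ChR2 well 1, 3, 5 or 6 or wild-type well 1, 4 or 6 was omitted (up to 0.0916). It was called without wild-type wells 2 and 5 (0.33, adjusted p = 0.0225). The number of upstream genes called higher was as low as 2, without ChR2 well 1 or ChR2 well 3, and 3 without ChR2 wells 4 or 6 or wild-type well 1. Taok3 is named here after its values were seen.

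Other genes commonly listed as YAP targets were more often higher than lower. Of 17 such genes 16 were tested and 6 rose, while 1, Foxf2, fell. The median log2 fold change was 0.43. Without wild-type wells 2 and 5, 10 rose and 0 fell, with a median of 0.51, and the 6 were among the 10. The shares over all genes were 14.0% higher and 14.1% lower, and 18.9% and 16.3% over 10 libraries. Tissue factor (F3), the starter of blood coagulation, stood at 10.8 ± 1.67 against 1.98 ± 0.80 CPM (log2 fold change 2.36, adjusted p = 2.13e-05). Its ChR2 wells (9.28 to 14.1 CPM) lay far above the wild-type wells (1.31 to 3.41 CPM), where 8.57% of all genes were fully higher. Wild-type well 2, at 1.31 CPM, was below the floor of that well, 3.93 CPM. Igfbp3, which binds insulin-like growth factors such as the IGF-1 of the medium, stood at 18.2 ± 3.41 against 6.62 ± 3.53 CPM (1.54, adjusted p = 0.000946). Crim1 stood at 5.47 ± 1.37 against 3.24 ± 1.29 CPM (0.89, adjusted p = 0.0337) and Rbms3 at 26.1 ± 2.42 against 17.1 ± 5.57 CPM (0.64, adjusted p = 0.0266). Crim1 was at the floor, 3.93 CPM, in wild-type well 2, and its wells overlapped between the lines in both sets of libraries. Over 10 libraries these 4 genes stood at 2.36, 1.49, 1.08 and 0.78 and were called, as the choice of named genes required.

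Among the remaining genes of that list, the receptor kinase Axl stood at 180.4 ± 11.99 against 141 ± 39.8 CPM and was not called over 12 libraries (log2 fold change 0.37, adjusted p = 0.0957), but was over 10 libraries (0.65, adjusted p = 0.000171) and when wild-type well 2 or 5 alone was omitted. Myof, Dock5 and Ptpn14 were likewise called higher over 10 libraries and not over 12, and each was called without wild-type well 5 alone. Axl, Myof, Dock5, Ptpn14 and Foxf2 are named after their values were seen. Foxf2 (-0.56, adjusted p = 0.0408) lost its call without wild-type wells 2 and 5 (-0.52, adjusted p = 0.0571) and when any single well was omitted except ChR2 well 1 and wild-type wells 1 and 5. Crim1 was not called when ChR2 well 1, 2, 3 or 6 or wild-type well 1, 3 or 6 was omitted (adjusted p up to 0.0754), nor Rbms3 when ChR2 well 2 or 3 or wild-type well 3 was (up to 0.0683). With 1 library left out the list had 4 to 10 genes higher and 0 to 1 lower. It had 10 higher without wild-type well 5, and 4 without ChR2 well 2 or ChR2 well 3. By limma over 12 libraries, 2 were higher on log2(TPM + 1), 2 on log2(TPM + 0.1) and 3 on log2(TPM + 1) unfiltered.

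**Figure D5:**
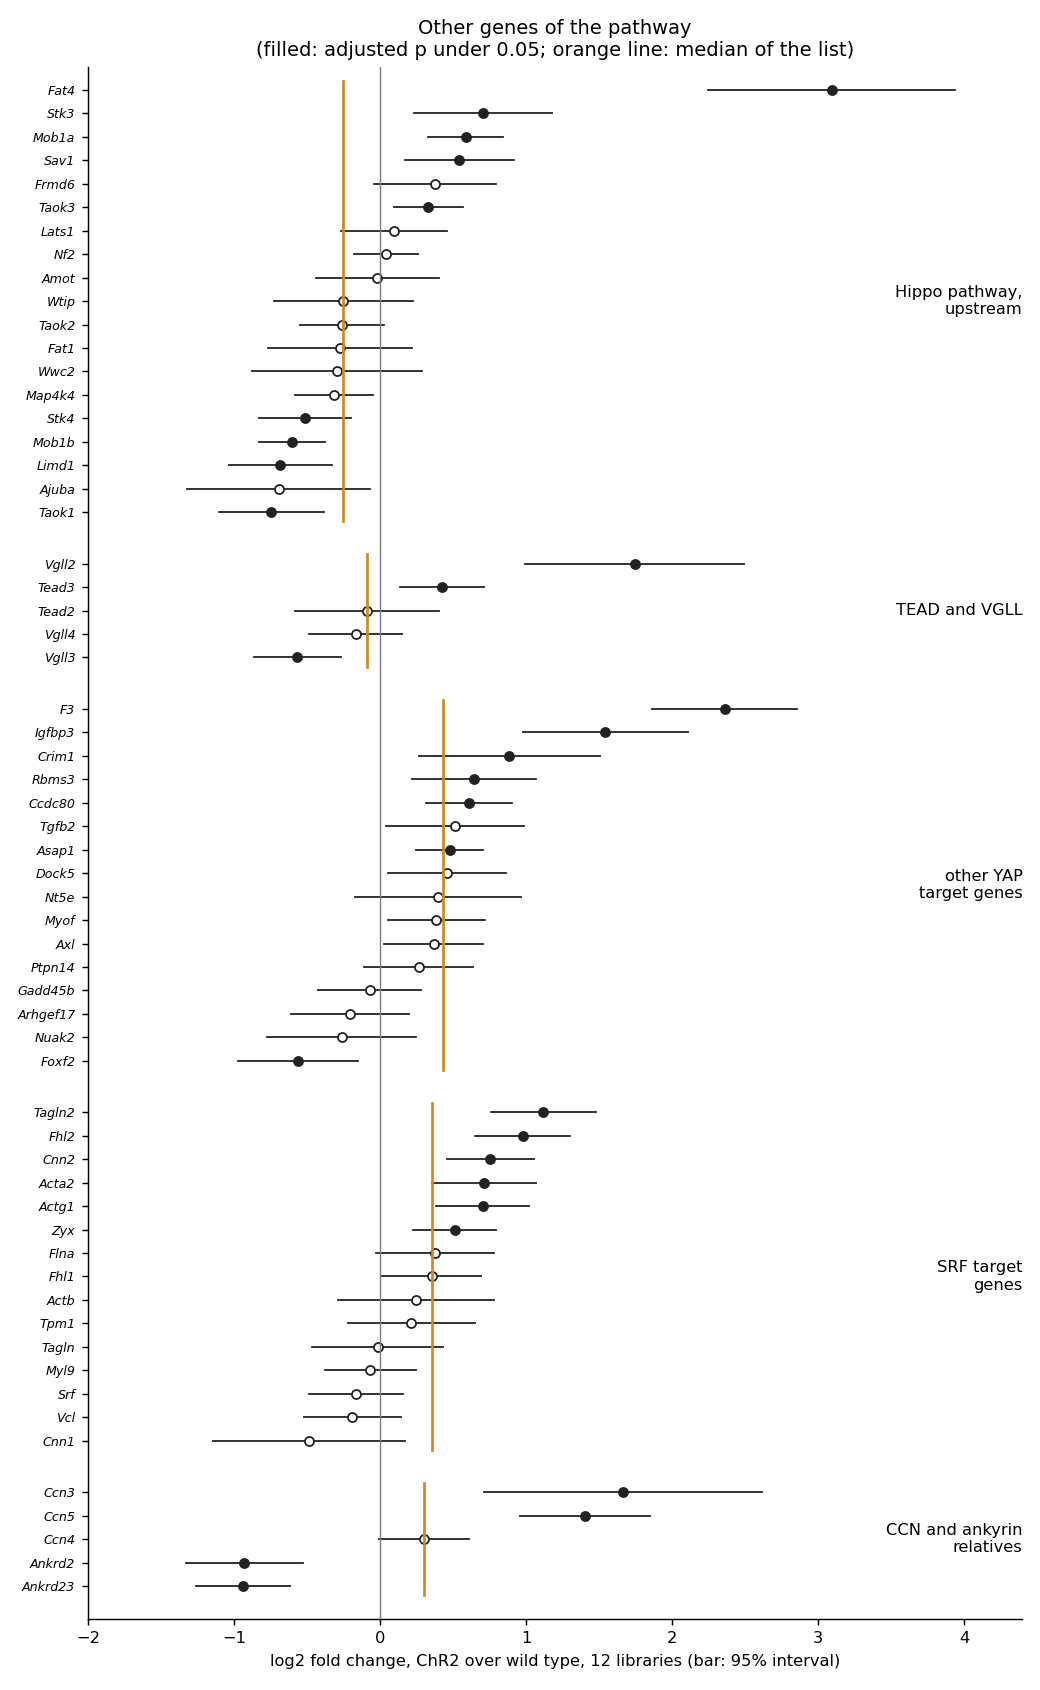
Log2 fold change, ChR2 over wild type over 12 libraries, with its 95% interval, of the tested genes of 5 lists. Filled points passed an adjusted p of 0.05 and the orange line is the median of the list, which lies at 0.43 for the other YAP target genes and at -0.25 for the upstream genes.

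Ccn1, Ccn2 and Ankrd1 are also known targets of SRF, the factor that responds to actin through MRTF, and 15 other SRF target genes were therefore examined. All 15 were tested, 6 rose and 0 fell, and the median log2 fold change was 0.35 (8 rose and 0 fell over 10 libraries, with a median of 0.52, and the 6 were among the 8). Over all genes 14.0% rose and 14.1% fell, or 18.9% and 16.3% over 10 libraries. The actin-binding protein gene Tagln2 stood at 303 ± 32.8 against 138 ± 38.2 CPM (log2 fold change 1.12, adjusted p = 0.000404) and Fhl2, a LIM protein, at 34.5 ± 4.55 against 18.0 ± 3.64 CPM (0.98, adjusted p = 0.000522). Cnn2, a calponin, stood at 106 ± 9.90 against 63.0 ± 13.7 CPM (0.76, adjusted p = 0.00144), and Acta2, smooth muscle actin, at 943 ± 87.8 against 575 ± 139.6 CPM (0.71, adjusted p = 0.00601). These 4 genes were named for being called in both sets of libraries with the largest fold changes. No ChR2 well overlapped a wild-type well for them, and 8.57% of all genes were likewise fully higher over 12 libraries. Over 10 libraries the fold changes of the 4 were 1.02, 1.08, 0.92 and 0.64, all called as the choice required. Srf itself (34.1 ± 4.60 against 39.4 ± 9.14 CPM, adjusted p = 0.436) and Vcl, which encodes vinculin (355 ± 26.6 against 406 ± 102 CPM, adjusted p = 0.382), were not called. Neither were Tagln (log2 fold change -0.02, adjusted p = 0.968), Cnn1 (-0.49, adjusted p = 0.252) and Myl9 (-0.07, adjusted p = 0.775). Actb, Fhl1, Flna and Tpm1 had positive fold changes and were not called over 12 libraries, and Actb and Flna were called higher over 10. Which of these factors acts on the members was not tested.

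Relatives of the target genes did not all follow them. Of 4 other CCN genes and 2 other ankyrin repeat genes of the CARP family, 5 were tested, and 2 rose and 2 fell (1 and 2 over 10 libraries), with a median of 0.30, where 28.1% of all genes were called, or 35.2% over 10 libraries. Ccn5 rose (11.0 ± 2.12 against 4.54 ± 1.84 CPM, log2 fold change 1.40, adjusted p = 0.000387). Ccn3 rose over 12 libraries (32.2 ± 4.89 against 9.74 ± 8.69 CPM, 1.66, adjusted p = 0.0136) and was not called without wild-type wells 2 and 5 (1.56, adjusted p = 0.0636); it is named after its values were seen. Ankrd2, a relative of Ankrd1 found in the sarcomere, stood at 41.8 ± 2.72 against 81.4 ± 29.0 CPM (-0.93, adjusted p = 0.00257), and Ankrd23 at 99.8 ± 7.24 against 193 ± 47.5 CPM (-0.94, adjusted p = 0.000619). Both fell while Ankrd1 rose, and the wells of the 2 lines did not overlap for either, where 6.52% of all genes were fully lower. Over 10 libraries Ccn5, Ankrd2 and Ankrd23 stood at 1.45, -0.89 and -0.93, all called as the choice of named genes required. The difference between Ankrd1 and its relatives was not itself tested.

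The genes most like each member were sought by Pearson's r of log2 CPM over the 10 libraries without wild-type wells 2 and 5, among 10967 other genes of at least 5 CPM. With 2 lines in 10 libraries, r largely reflects the difference between the lines where there is one, and it is given as a description. The largest of 10967 values over 10 libraries is also high by selection, whether or not the lines differ, and no link between the genes was tested. Tead4 was followed most closely by Psme4 (r = 0.995), Abraxas2 and Slc6a6 (both 0.988). Ccn1 was nearest to Gatd1 (0.975), Fam131b (0.969) and Gdf15 (0.963), and Ccn2 to Dstn (0.956), which encodes the actin-severing protein destrin, Timp3 (0.936) and Stt3a (0.932). Ankrd1 was nearest to Rcc1 (0.95), Wdr1 (0.924) and Lyar (0.921). Amotl1 was nearest to Usp12 (0.973), the muscle transcription factor gene Mef2a (0.971) and Dyrk2 (0.961), and Amotl2 to the transcription factor gene Snai1 (0.973), Tnfrsf1b (0.941) and Dsel (0.937). Lats2 was nearest to Mapk1ip1l (0.977), Furin (0.974) and Tnfrsf23 (0.965). For Yap1 the nearest were Fbxw4 (0.953), Brd3os (0.949) and Tbc1d2b (0.933), for Wwtr1 the Hippo-linked kinase gene Map4k4 (0.93), Nuak1 (0.917) and Pcdh7 (0.902), and for Tead1 Cyfip2 (0.967), Tmem131l (0.96) and Galnt5 (0.959).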

How the data were processed

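Per gene and library, the authors deposited estimated counts, some of them fractional, and TPM values. Tools named in the submitters' processing notes are Salmon, STAR, bedtools 2.25.0 and BWA 0.7.12-r1039, and builds GRCm39, mm10 and hg19, with no roles given. Libraries were made from poly(A)-selected RNA with 14 PCR cycles, or by ribodepletion for low-input samples that are not named, and read as pairs of 50 bases, per the labels' protocols. No per-sample column was left unused (0).

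Estimated counts were rounded, filtered by filterByExpr (minimum count 10), scaled by TMM and tested with the robust quasi-likelihood test of edgeR 4.0.16 in R 4.3.3, by line, with Benjamini-Hochberg adjustment over all genes. SEs and 95% intervals were derived from the fold change and its F statistic. Without molecular identifiers, floors cover counting error only. The script was tested on simulated data. No 2 libraries of a line agreed within sampling noise (chi-square per degree of freedom at least 5.09).

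The members, lists and tests were chosen with earlier results of these data known. Named genes of a list were those called in the same direction over 12 and 10 libraries, at most 4 per direction by fold change, of at least 1 CPM, with the 3 genes of highest r per member. Genes named beyond this (Lats1, Tead2, Myog, Des, Mymk, Fat1, Amot, Nf2, Vgll4, Srf, Vcl, Tagln, Cnn1, Myl9, Actb, Fhl1, Flna, Tpm1 and those so marked) were chosen after their values were seen. Other settings were DESeq2's size factors, the Wald test of DESeq2 1.42.0, other filters, limma 3.58.1 on log2(TPM + 1) and log2(TPM + 0.1), the well number as a replicate block, and the omission of each library. Promoters came from RefSeq. Figures were drawn with matplotlib 3.10.9.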

Additional observations from a re-analysis of the deposited data

Results flagged for a closer look

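Of 64 groups of 6 wells checked (10 members and 22 further named genes in 2 lines), 2 had a well whose gap to its nearest neighbour was over 0.625 of the range of the group, where chance flags about 1 in 20. Ccn1 in wild-type well 2 stood at 24.9 CPM, below the other 5 wild-type wells at 41.9 to 50.3 CPM. That well had the fewest counts of any library, and 19 of Ccn1. F3 in ChR2 well 5 stood at 14.1 CPM, above the other 5 ChR2 wells at 9.28 to 10.7 CPM.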

How the results depend on the processing

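Over 22 other settings, Ccn1, Amotl1 and Tead4 kept their direction in each and were called in 19, Ccn2 was called in 18, Lats2 in 15 and Ankrd1 in 7. Yap1, Wwtr1, Tead1 and Amotl2 were called in 0 of 22. The 3 settings that lost Ccn1, Amotl1 and Tead4 were limma on TPM over 12 libraries, which took in wild-type wells 2 and 5. Why these calls were lost was not tested. In these fits the median of all genes moved to 0.35 with log2(TPM + 1), 0.43 with log2(TPM + 0.1) and 0.076 with log2(TPM + 1) unfiltered. The median also moved, to -0.18 over 26624 genes, in the Wald test of DESeq2. Relative to the first median, Ccn1 stood at 0.93, Tead4 at -1.13 and Amotl1 at -0.77, with limma's adjusted p at 0.112, 0.23 and 0.359. Ccn2, Ankrd1 and Lats2 stood at 0.67, 0.46 and -0.47 (adjusted p = 0.206, 0.257 and 0.849).

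In those 3 TPM fits 0 members were called higher and 0 lower. Over all genes, 493 were higher and 23 lower with log2(TPM + 1), 256 and 18 with log2(TPM + 0.1), and 515 and 40 unfiltered, against 1838 and 1863 in edgeR; of the genes in the 5 further lists, 6, 4 and 7 were higher and 0 lower in each, against 21 and 8. In limma on log2(TPM + 1) without wild-type wells 2 and 5, chosen after the data were seen, 1 member was higher (Ccn1) and 2 lower (Amotl1 and Tead4), with 17 list genes higher and 5 lower. Wwtr1 changed sign in the 3 TPM fits over 12 libraries (0.40, 0.42 and 0.40). Tead1 changed sign without wild-type wells 2 and 5 (-0.054, or -0.12 on TPM) and without ChR2 well 2 or wild-type well 1, 2, 3 or 5 (range with 1 library left out -0.051 to 0.11), and Amotl2 without wild-type well 6 (range -0.017 to 0.20).

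Leaving out 1 library gave 2 to 3 members higher and 2 to 3 lower, 1497 to 2120 genes higher and 1284 to 2127 lower, and 15 to 27 list genes higher and 6 to 9 lower. Of 29 list genes called, 21 were called without each single library, as were 4 of 6 members. No label says that the numbers pair the wells. Deviations of same-numbered wells correlated at -0.14 to 0.10, and 1 of 6 ChR2 wells was best matched by its own number. These deviations were taken from a line mean that includes the shallow wild-type wells, so they cannot decide whether the numbers pair the wells. With the replicate block, 1171 genes were called lower, and among members Ankrd1 lost its call (0.35, adjusted p = 0.082). The filter of 1 CPM in 6 libraries kept the same number of genes, 13168, and gave the same counts. Ankrd1 was not called with no filter (0.37, adjusted p = 0.111). Depth limits wild-type well 2 most: 3 counts, the floor of detection, are 3.93 CPM there and at most 1.07 CPM elsewhere.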
